A study of Mus musculus with 40 samples.

Results

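The transcriptional coactivators YAP (gene Yap1) and TAZ (gene Wwtr1), the DNA-binding TEAD factors Tead1, Tead2, Tead3 and Tead4, and 3 genes they are known to switch on, Ankrd1, Amotl2 and Ajuba, were followed through 40 QuantSeq 3′ mRNA libraries of mouse melanoma lines. These 9 genes were taken by symbol from the 51789 genes of the count table, of which 27946 had at least 1 count, by a rule that uses no expression value, though earlier results of these data were known when they were chosen. YAP and TAZ have no DNA-binding domain of their own and reach target genes through a TEAD partner. The Hippo kinase cascade phosphorylates both coactivators and holds them in the cytoplasm, whereas a spread cell shape, a stiff substrate and actomyosin tension favor their entry into the nucleus. In melanoma, YAP, TAZ and TEAD activity is known from the undifferentiated, mesenchymal-like and invasive cell states. Much of this control acts on protein location, which mRNA counts do not measure.

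The libraries formed 20 groups of 2. B16-F10, a mouse melanoma line, was given as a control (Ctrl) and as a Bmal1 knockout (KO), each a single clone. Bmal1 (gene Arntl) is the transcription factor that partners with Clock at the head of the circadian clock. YUMM2.1, a line with mutant Braf, 1 copy of Cdkn2a and stabilized beta-catenin among its engineered changes, carried an empty vector (EV), wild-type Bmal1 (WT) or Bmal1 with the domain that binds DNA, the basic helix-loop-helix, removed (dHLH; the labels write bHLH or dH). The same 3 constructs were put into aC3, a YUMM2.1 clone whose own Bmal1 had been knocked out by CRISPR, and into YUMM1.7, another mouse line with Bmal1 intact. The construct cells were sorted for GFP. YUMM2.1 cells with each construct also carried either a scramble hairpin (shNC) or 1 of 2 hairpins against Myh9, the heavy chain of non-muscle myosin IIA, named shMyh9#2 and shMyh9#4, under puromycin. YUMM2.1 EV and YUMM2.1 EV shNC were therefore different cultures with different selection. The labels do not say whether the 2 replicates of a group came from separate cultures. The study's legends call the duplicates biological for the B16, YUMM2.1, YUMM1.7 and hairpin data they show. For aC3 they speak only of duplicates. How the replicates were grown is not described, so p-values measure the spread between these libraries.

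Totals ran from 3643332 to 22970049 counts per library (median 10021164.5). Arntl counts came from the 3′ end of the transcript, which an edit or a construct need not change: Arntl differed by -0.07 ± 0.26 on the log2 scale between B16 KO and Ctrl (adjusted p = 0.923), so those libraries are called by their label, "labelled KO". The 2 libraries labelled KO also differed more from each other than those of any other group. Pearson r of log2 values, over genes above a minimum summed count in the pair, was 0.962, with 0.968 to 0.991 elsewhere. In 8 columns of a normalized table given by the study, 6 were closest to the library of their own label, and the columns of YUMM2.1 EV replicate 2 and YUMM2.1 WT replicate 1 were closest to each other's library. YUMM2.1 results are therefore given as labelled, with the labels of these 2 libraries exchanged, and without both. The labelled tissue was checked on 7 melanocytic markers: their summed level was 24600 and 26000 CPM in B16 Ctrl but 10.7 to 556 CPM in the YUMM2.1 and YUMM1.7 groups, where Tyrp1 and Mlana were at 0 in every group.

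Sequences around a RefSeq transcript start of the 3 target genes are shown because a TEAD motif is the part of them that a TEAD factor would read. Each is the window from 250 bases before to 50 bases after the RefSeq transcript start in GRCm38.p6, given 5′ to 3′ on the strand of the gene, with GGAATG or its reverse complement CATTCC in capitals. The Ankrd1 window lies at chr19:36119795-36120094 on the minus strand, the Amotl2 window at chr9:102717554-102717853 on the plus strand and the Ajuba window at chr14:54577612-54577911 on the minus strand. By the mm10 gene spans given below, the Ankrd1 and Amotl2 windows lie within their genes and the Ajuba window lies outside its gene. The RefSeq starts used here thus differ from the starts of those spans.
Ankrd1: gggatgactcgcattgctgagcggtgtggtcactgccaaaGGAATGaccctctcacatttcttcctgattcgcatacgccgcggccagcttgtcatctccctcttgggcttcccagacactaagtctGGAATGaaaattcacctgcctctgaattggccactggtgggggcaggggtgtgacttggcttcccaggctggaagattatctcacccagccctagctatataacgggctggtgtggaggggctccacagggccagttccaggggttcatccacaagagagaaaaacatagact
Amotl2: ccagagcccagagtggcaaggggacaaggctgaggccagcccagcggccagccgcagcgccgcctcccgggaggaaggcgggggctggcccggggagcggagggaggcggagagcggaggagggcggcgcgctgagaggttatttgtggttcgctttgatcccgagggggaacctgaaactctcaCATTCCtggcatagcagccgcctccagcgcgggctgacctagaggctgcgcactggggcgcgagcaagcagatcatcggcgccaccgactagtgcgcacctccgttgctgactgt
Ajuba: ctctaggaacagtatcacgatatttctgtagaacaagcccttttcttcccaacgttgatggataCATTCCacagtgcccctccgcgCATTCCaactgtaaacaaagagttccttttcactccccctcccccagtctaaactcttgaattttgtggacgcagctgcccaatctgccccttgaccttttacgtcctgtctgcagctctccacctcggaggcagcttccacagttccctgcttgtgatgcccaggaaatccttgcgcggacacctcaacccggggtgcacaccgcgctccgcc
Counted from the transcript start, the first base of the motif was at -210 and -123 in Ankrd1, at -65 in Amotl2, and at -186 and -164 in Ajuba. Of 32851 RefSeq promoter windows of this length, 14.7% held it on either strand, so a match in any single window is common. Windows were found for 7 of the 9 members. The motif was also in those of Yap1 and Wwtr1 and in 2 of the 3 Tead3 windows, and these letters were not in the Tead2 window. The E-box CACGTG, the motif that Bmal1 with Clock is known to bind, was in the Yap1 window (in 7.15% of all windows) and in no other member's window. The AP-1 motif TGANTCA was in 7.81% of all windows and in none of the members'. A match is a description of the letters and not a binding site.

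In levels, the family was led by Wwtr1 and Tead1. QuantSeq gives about 1 read per transcript whatever its length, so CPM (counts per 1000000 counts of a library, scaled by TMM over all 40 libraries) were compared between genes without dividing by length. Wwtr1 ranged from 58.7 to 319 CPM over the libraries (median 242), Tead1 from 67.1 to 295 (median 216) and Yap1 from 23.6 to 112 (median 69.8). The other TEAD genes were lower, with medians of 11.2 CPM for Tead4, 6.21 for Tead2 and 2.91 for Tead3, the last on 4 to 81 counts per library. Among the targets, Ankrd1, a cardiac and muscle ankyrin-repeat protein in common use as a readout of YAP and TAZ, varied most for its level, from 0 to 75.2 CPM (median 18.3), with 7 libraries at 3 counts or fewer. Amotl2, an angiomotin that binds YAP and holds it back, stayed between 11.1 and 38.6 CPM (median 19.1), and Ajuba, a LIM protein that restrains the LATS kinases, between 8.51 and 45.4 CPM (median 15.4).

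In mm10, Ankrd1 (ENSMUSG00000024803) spans chr19:36111961-36120099 on the minus strand, Amotl2 (ENSMUSG00000032531) chr9:102716672-102733418 on the plus strand and Ajuba (ENSMUSG00000022178) chr14:54567472-54577558 on the minus strand. Yap1 (ENSMUSG00000053110) spans chr9:7931999-8004596 and Wwtr1 (ENSMUSG00000027803) chr3:57455649-57575910, both on the minus strand, and Tead1 (ENSMUSG00000055320) spans chr7:112679318-112906807 on the plus strand. Genes that overlap a member held few counts: 2310014F06Rik, within Tead1, held 431 counts over all libraries and Tead1 87238.

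When the 20 groups were put in order of their mean, most neighbors overlapped: of 19 neighboring pairs, the libraries overlapped in 12 for Ankrd1, 13 for Tead2, 14 for Tead1, 15 for Ajuba, 16 for Wwtr1 and for Tead4, 17 for Yap1 and all 19 for Tead3 and for Amotl2. The Ankrd1 order ran from YUMM2.1 dHLH shNC (mean 75 CPM) through WT shMyh9#2 (56.2), dHLH shMyh9#2 (55.8), WT shMyh9#4 (48.7), YUMM2.1 dHLH (47.2), WT shNC (43.0), dHLH shMyh9#4 (27.0) and EV shMyh9#2 (25.8). YUMM1.7 dHLH, EV and WT followed at 21.9, 20.9 and 16.7 CPM, and EV shMyh9#4 stood at 14.7. The lowest groups were EV shNC (4.80), YUMM2.1 WT (2.11) and EV (1.45), B16 KO (1.44) and Ctrl (1.32), and the 3 aC3 groups at 0.0983 to 0.225 CPM. The highest group mean was 14-fold above the lowest for Tead2, 3.84-fold for Yap1 and 2.79-fold for Amotl2, the narrowest span of the family.

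**Figure D1:**
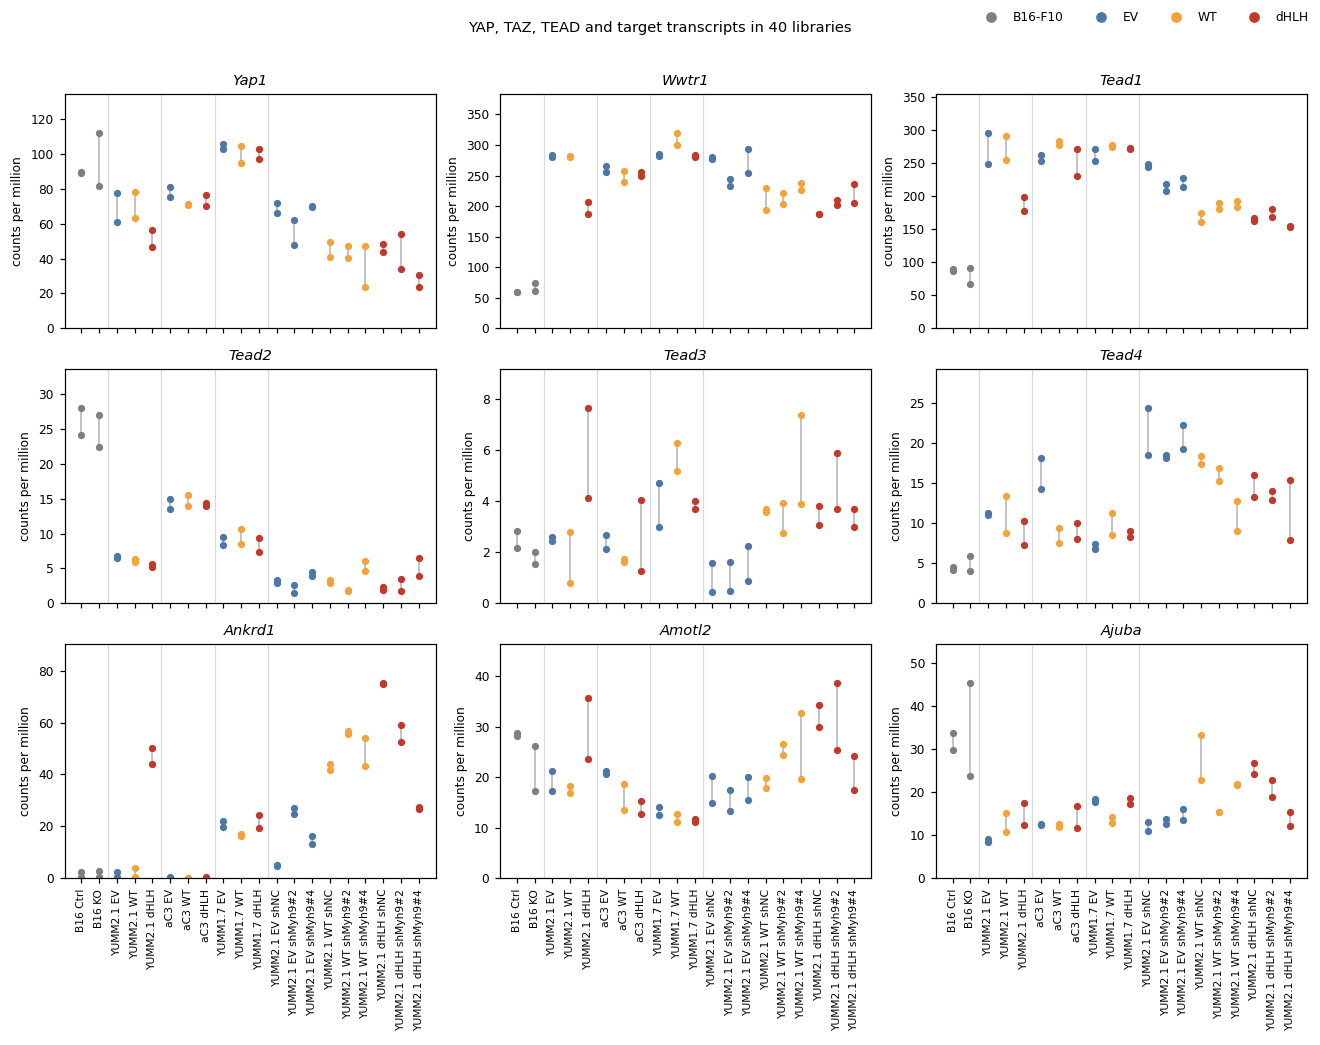
Level of each of the 9 genes in all 40 libraries, in CPM on a linear axis from 0 with its own range for each gene, with 1 point per library, a gray line joining the libraries of a group, and the 20 groups along the horizontal axis (gray for B16-F10, blue for EV, orange for WT and red for dHLH). Ankrd1 varied most for its level, from 0 CPM in an aC3 library to 75.2 CPM in a YUMM2.1 dHLH shNC library, while Wwtr1 and Tead1 were lowest in B16.

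The 4 TEAD genes together held 270 to 315 CPM in YUMM2.1 EV and WT. As a mean of the shares in its 2 libraries, Tead1 alone made up 87.2 to 93.4% in every YUMM2.1, aC3 and YUMM1.7 group. In B16 Ctrl the sum was 124 and 117 CPM, and Tead1 made up 72.7% and Tead2 21.6% of it. The balance of the coactivators differed as well. The ratio of Wwtr1 to Yap1, taken in each library and averaged over the 2 of a group, was 0.664 in B16 Ctrl. It was 0.705 in B16 labelled KO, against 2.72 to 8.35 in the other 18 groups. These sums and ratios are descriptions and were not tested. In bulk RNA, fewer cells of a type and less RNA per cell cannot be told apart.

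**Figure D2:**
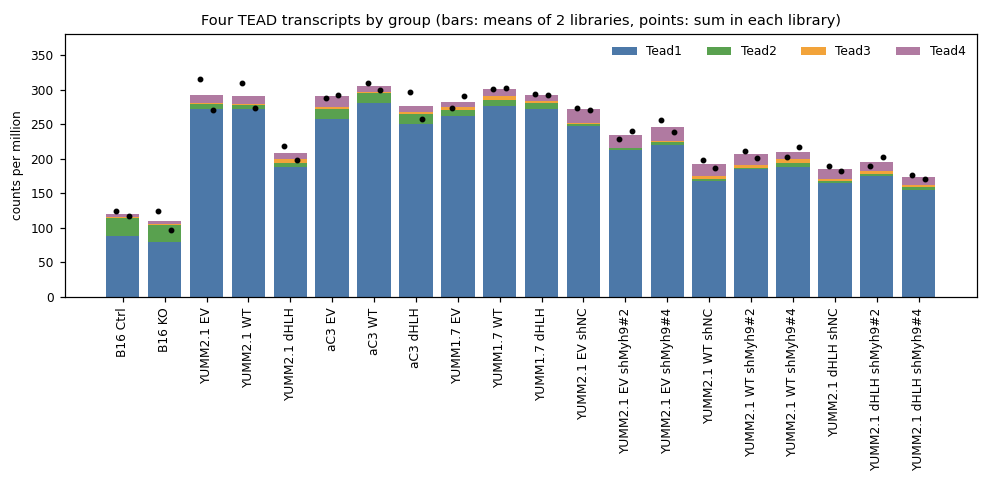
Summed level of Tead1, Tead2, Tead3 and Tead4 in each group, in CPM, as bars that start at 0 and are divided by gene (mean of 2 libraries per group), with a point for the sum in each library. Tead1 filled most of every bar, and the B16 bars were the lowest and had the widest Tead2 share, 21.6% in Ctrl and 22.5% in KO.

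The lines themselves were compared in their control state. Between YUMM1.7 EV and YUMM2.1 EV, 3 of 9 members differed, against 32.7% of the 16091 genes tested, and all 3 were higher in YUMM1.7. Ankrd1 stood at 22 and 19.8 CPM in YUMM1.7 EV and at 0.417 and 2.49 CPM in YUMM2.1 EV, with no overlap. It was higher in YUMM1.7 by 3.91 ± 0.88 on the log2 scale (SE; edgeR quasi-likelihood test, adjusted p = 0.00248), by 5.89 with the 2 labels exchanged (adjusted p = 1.27e-05) and by 5.59 without both libraries (adjusted p = 0.00127). Ajuba was 17.7 and 18.5 CPM against 8.51 and 9.08 CPM, higher by 1.02 ± 0.27 (adjusted p = 0.00853), and by 0.98 with adjusted p = 0.0582 without YUMM2.1 EV replicate 1. Yap1 was 106 and 103 CPM against 77.8 and 60.9 CPM, higher by 0.57 ± 0.15 (adjusted p = 0.00706). That call did not stand without YUMM2.1 EV replicate 2 (0.40, adjusted p = 0.104) or without both doubtful libraries (0.40, adjusted p = 0.0899). Wwtr1 and Tead1 were close in both lines, with differences of -0.01 (95% interval -0.21 to 0.18) and -0.07 (-0.34 to 0.19).

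B16 Ctrl stood further from both YUMM lines. Against YUMM2.1 EV, 6 of 9 members differed (48.9% of all genes tested did), and against YUMM1.7 EV 7 of 9 did (49.6% of all genes). Wwtr1 was 60.1 and 58.7 CPM in B16 Ctrl, against 281 to 286 CPM in both EV groups, lower by a log2 difference of -2.27 ± 0.096 from YUMM2.1 (adjusted p = 5.98e-12) and of -2.25 ± 0.096 from YUMM1.7 (adjusted p = 6.39e-12). Tead1 was 89.0 and 86.0 CPM and lower by -1.65 ± 0.13 and -1.58 ± 0.13, respectively. Tead2 moved the other way: at 28.0 and 24.1 CPM against 6.76 and 6.49 CPM in YUMM2.1 and 8.43 and 9.44 CPM in YUMM1.7, it was higher by 1.96 ± 0.17 and 1.55 ± 0.17. These 6 calls stood whichever library was left out, with none of the B16 and YUMM libraries overlapping. Ajuba, at 33.7 and 29.9 CPM, was higher in B16 by 1.84 ± 0.27 over YUMM2.1 and by 0.82 ± 0.26 over YUMM1.7 (adjusted p = 0.0138, a call lost in 3 of the fits with 1 library left out). Ankrd1, at 2.30 and 0.339 CPM, was lower than in YUMM1.7 by a log2 difference of -3.97 ± 0.82 (adjusted p = 0.000691), while its difference from YUMM2.1 was -0.06 with an interval of -2.22 to 2.09. Tead4 was lower in both comparisons (-1.37 ± 0.26, and -0.69 ± 0.26 with adjusted p = 0.0398), the second not called without any 1 of 4 libraries. Amotl2 was higher by 1.10 ± 0.22 over YUMM1.7 and by 0.54 ± 0.22 over YUMM2.1, where the adjusted p of 0.0497 rose above the threshold without any 1 of 16 libraries. Of the calls against YUMM2.1, 5 remained without the doubtful libraries, and Amotl2 was the one lost.

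The Bmal1-null clone aC3 with EV differed from YUMM2.1 EV in 1 member, against 1.95% of the 16091 genes. Tead2 was 13.6 and 15 CPM in aC3 and 6.76 and 6.49 CPM in YUMM2.1, higher by 1.12 ± 0.18 (adjusted p = 0.00228), with no overlap and a call in every fit with 1 library left out. aC3 is a single clone, so the edit and the clone cannot be told apart. Ankrd1 was at 0 to 3 counts in each of the 6 aC3 libraries, no more than 0.318 CPM, and was filtered from the tests within aC3.

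The next comparison asked what Bmal1 that cannot bind DNA does in clock-intact YUMM2.1. The clearest change was in Ankrd1: 50.2 and 44.2 CPM in the dHLH libraries, against 0.417 and 2.49 CPM in EV and 0.255 and 3.97 CPM in WT. Both dHLH libraries lay above all 4 others. Ankrd1 rose by 5.12 ± 0.94 over EV on the log2 scale (95% interval 2.91 to 7.33; adjusted p = 0.0161) and by 4.54 ± 0.89 over WT (adjusted p = 0.0201). The low libraries rested on 3 to 40 counts, so the size is loosely known. Left out one at a time, EV replicate 1 gave 4.26 (adjusted p = 0.0532) and dHLH replicate 1 5.01 (0.0528) in the first comparison. WT replicate 1 gave 3.58 (0.0705), dHLH replicate 1 4.44 (0.0635) and dHLH replicate 2 4.61 (0.0579) in the second. With the 2 labels exchanged the differences were 7.09 from EV and 3.87 from WT, and without both libraries 6.79 and 3.58, each called.

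Wwtr1, which encodes TAZ, fell in the same cells. It was 207 and 187 CPM with dHLH, against 284 and 281 CPM with EV and 282 and 281 CPM with WT, so the dHLH libraries lay below the rest. The log2 difference was -0.50 ± 0.12 from EV (adjusted p = 0.0331) and -0.50 ± 0.12 from WT (adjusted p = 0.0323). With 1 library fewer, the value kept between -0.58 and -0.45 against EV but missed the threshold in all 6 fits (adjusted p 0.0657 to 0.14), and against WT in the 4 fits that left out a WT or dHLH library (adjusted p 0.0678 to 0.239). It was called with the labels exchanged (-0.51, adjusted p = 0.00551) and not called without both libraries (-0.52, adjusted p = 0.221). In all, 2 of 9 members passed in each comparison, against 13.2% of the 14323 genes tested for dHLH against EV and 13.0% for dHLH against WT. With the labels exchanged the shares of all genes called were 28.7% and 18.9%, and without both libraries 11.9% and 6.43%. The median over the 9 members was -0.27 against EV and -0.18 against WT, with -0.011 and -0.006 over all genes.

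No other member passed as labelled in edgeR with the filter on low counts, the 6 YUMM2.1 libraries and no replicate block. With the replicate number as a block and the labels as deposited, 6 members were called against EV and 6 against WT, where 27.1% and 26.0% of all genes were. Nothing in the labels pairs the samples. Tead1 was 199 and 178 CPM with dHLH and 295 and 249 CPM with EV, without overlap, a difference of -0.51 ± 0.14 (adjusted p = 0.0602). It was called by DESeq2 (-0.51, adjusted p = 0.0213), without the filter (-0.54, 0.00894), in 1 fit of all 40 libraries (-0.51, 0.000846) and with the labels exchanged (-0.62, adjusted p = 0.00218). The last setting also called Yap1 (-0.59, adjusted p = 0.00698, with -0.41 and 0.199 as labelled). Tead3 (1.25 ± 0.57), Ajuba (0.78 ± 0.27) and Amotl2 (0.64 ± 0.23) had positive values against EV with adjusted p of 0.204, 0.111 and 0.127. Against WT, Tead1 was called by DESeq2 (-0.51, adjusted p = 0.0192), and the exchanged labels brought calls for Tead1 (-0.40, adjusted p = 0.0242), Amotl2 (0.82, adjusted p = 0.0269) and Tead3 (1.83, adjusted p = 0.044). The dHLH libraries also differed in markers of other states. The 5 mesenchymal markers (Col1a1, Col1a2, Pdgfra, Pdgfrb and Dcn) summed to 384 and 304 CPM with dHLH against 9.68 to 29.5 CPM with EV and WT, with Dcn at 0 in EV. Most of that sum was Col1a1 (249 and 229 CPM) and Col1a2 (117 and 65.0 CPM), and Dcn was at 1 count or fewer in the dHLH libraries. The 7 melanocytic markers summed to 81.1 and 93.0 CPM against 447 to 556 CPM, with Dct, Tyrp1 and Mlana at 0 throughout. That difference lay in Sox10, at 66.0 and 72.1 CPM against 429 to 539 CPM, while Mitf was 14.9 and 20.8 CPM against 14.3 to 17.5 CPM and overlapped. Arntl was higher with dHLH by 1.54 ± 0.24. Their part in the results for the 9 genes was not tested.

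Wild-type Bmal1 in YUMM2.1 called 0 of 9 members against EV with edgeR, 0 at an unadjusted p under 0.05 and 0 with DESeq2, on a background of 0.0% of the 14323 genes (98 genes at an unadjusted p under 0.05). Ankrd1 was 0.255 and 3.97 CPM with WT and 0.417 and 2.49 CPM with EV, a difference of 0.58 with an interval of -1.93 to 3.09. The 2 libraries in question decided this value. With their labels exchanged, EV held 0.417 and 0.255 CPM and WT 2.49 and 3.97 CPM, and Ankrd1 was higher with WT by 3.22 ± 0.41 (adjusted p = 0.0136), while 101 genes were called over the whole table. Without both, the difference was 3.21 ± 0.57 (adjusted p = 0.017) on 1 library each of EV and WT, which are assumed to vary like the dHLH pair, and 40 genes were called. Leaving out EV replicate 1 or WT replicate 2 turned its sign, to -0.28 and -2.36.

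In Bmal1-null aC3 cells, Tead4 was the member that fell with both constructs. Tead4 was 18.1 and 14.3 CPM with EV, 9.35 and 7.46 CPM with WT and 10 and 8.06 CPM with dHLH. Both EV libraries lay above all 4 construct libraries. The log2 difference was -0.95 ± 0.21 for WT (adjusted p = 0.0098) and -0.85 ± 0.21 for dHLH (adjusted p = 0.0188). The WT call was lost without EV replicate 1 (-0.77, adjusted p = 0.117) or WT replicate 2 (-0.81, 0.103), and the dHLH call without EV replicate 1 (-0.68, 0.163), EV replicate 2 (-1.01, 0.0537) or dHLH replicate 2 (-0.71, 0.065). In 1 fit of all 40 libraries the dHLH values were -0.83 (0.127) for Tead4 and -0.59 (0.316) for Amotl2, neither called. Amotl2 was 12.6 and 15.3 CPM with dHLH and 20.7 and 21.3 CPM with EV, lower by a log2 difference of -0.60 ± 0.18 (adjusted p = 0.0442), and was not called without EV replicate 1 (-0.63, 0.139), EV replicate 2 (-0.58, 0.208) or dHLH replicate 1 (-0.47, 0.192). For WT its value was -0.40 (adjusted p = 0.166). That made 1 of the 8 members tested for WT and 2 of 8 for dHLH, against 11.2% and 10.9% of the 13790 genes tested. Between dHLH and WT, 0 of 8 passed in edgeR, 0 at an unadjusted p under 0.05 and 0 in DESeq2, where 0.877% of all genes passed. The Tead4 difference there was 0.11 with an interval of -0.37 to 0.58. The 2 constructs share their EV libraries, so the 2 differences from EV are not independent.

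The abundant members had narrow intervals in aC3. With WT, Yap1 differed from EV by -0.15 (95% interval -0.35 to 0.05), Wwtr1 by -0.07 (-0.25 to 0.10) and Tead1 by 0.11 (-0.08 to 0.30). With dHLH the intervals were -0.30 to 0.10, -0.23 to 0.12 and -0.23 to 0.14.

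In YUMM1.7, 0 of 9 members were called for WT against EV (4 at an unadjusted p under 0.05, 0 with DESeq2, and 0.138% of the 13816 genes tested were called), 0 of 9 for dHLH against EV (0 at an unadjusted p under 0.05, 0 with DESeq2, background 0.63%) and 0 of 9 for dHLH against WT (3 at an unadjusted p under 0.05, 0 with DESeq2, background 2.57%). Ankrd1 was 22 and 19.8 CPM with EV, 17.1 and 16.3 CPM with WT and 24.3 and 19.5 CPM with dHLH. The WT libraries were the lowest, at -0.33 against EV (adjusted p = 0.447). For dHLH against EV the Ankrd1 difference was 0.06 with an interval of -0.23 to 0.36, and that of Wwtr1 was -0.01 with an interval of -0.12 to 0.10. Ajuba at -0.41, Wwtr1 at 0.12 and Tead4 at 0.49 were the other members under an unadjusted p of 0.05 for WT against EV. The mesenchymal markers summed to 2050 to 2290 CPM in the YUMM1.7 libraries, of which Col1a2 made up 1900 to 2140 CPM and Col1a1 no more than 5.24 CPM, and the melanocytic markers to 10.7 to 14.8 CPM.

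Whether dHLH acted differently in the 3 lines was tested by the difference between its effects. From YUMM2.1 to YUMM1.7, 2 of 9 members differed, against 8.69% of the 16091 genes. The dHLH effect on Ankrd1 was lower in YUMM1.7 by a log2 difference of -5.04 ± 1.12 (adjusted p = 0.00948), and -7.02 with exchanged labels and -6.72 without both libraries, each called. It was -4.18 (adjusted p = 0.0601) without YUMM2.1 EV replicate 1 and -4.91 (0.051) without YUMM1.7 dHLH replicate 2. For Wwtr1 the difference was 0.50 ± 0.13 (adjusted p = 0.0227), called with exchanged labels (0.51, 0.0113) but not without both libraries (0.52, 0.0531), without the filter on low counts (0.49, 0.129) nor in 6 of the fits with 1 library left out. Tead1 differed by 0.58 ± 0.18 (adjusted p = 0.0568), and by 0.70 without both libraries (0.0338). From YUMM2.1 to aC3, 2 of 9 differed, against 11.4% of all genes: Wwtr1 by 0.47 ± 0.13 (adjusted p = 0.026) and Amotl2 by -1.21 ± 0.31 (adjusted p = 0.0182). Neither passed without both doubtful libraries (0.48, 0.0615, and -1.07, 0.0768). The Wwtr1 call was lost without the filter (0.44, 0.2) and in 12, and the Amotl2 call in 4 of the fits with 1 library left out. Ankrd1 was tested from YUMM2.1 to aC3 and not called in edgeR, as labelled or without both libraries. It was called in DESeq2 and in edgeR with exchanged labels. Each aC3 library held 0 to 3 counts of it, so no size is given. The WT effect differed between YUMM1.7 and YUMM2.1 in 0 of 9 members in edgeR (1 at an unadjusted p under 0.05, 0 in DESeq2, background 0.0%, 372 genes at an unadjusted p under 0.05), and between aC3 and YUMM2.1 in 0 of 9 (1 and 0, background 0.118%).

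**Figure D3:**
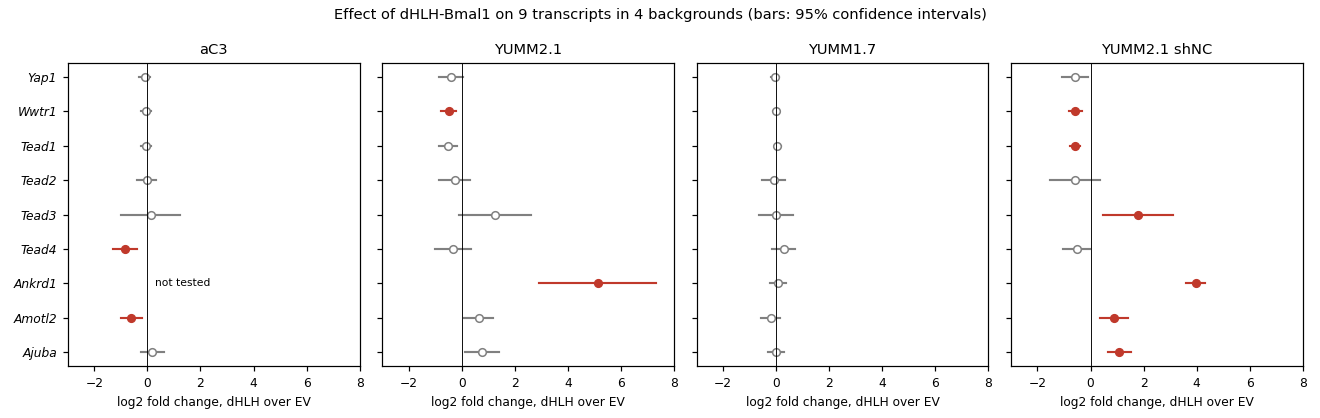
Log2 difference of dHLH from EV for the 9 genes in YUMM2.1, aC3, YUMM1.7 and YUMM2.1 with the scramble hairpin, as points with 95% intervals and a line at 0. Filled red points were called (adjusted p under 0.05), open gray ones were not, and Ankrd1 was not tested in aC3. Ankrd1 lay at 5.12 in YUMM2.1 and 3.96 with the scramble hairpin and at 0.06 in YUMM1.7, and Wwtr1 lay at -0.50, -0.57 and -0.01 in the same order.

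The hairpin experiment repeated the 3 constructs in YUMM2.1 cells with shNC. Here both constructs stood apart from EV. For WT shNC against EV shNC, 5 of 9 members were called (3 higher and 2 lower), against 22.3% of the 14848 genes tested. For dHLH shNC, 6 of 9 were called (4 higher and 2 lower), against 26.4%. The 2 comparisons share the EV shNC libraries. Ankrd1 was 4.89 and 4.71 CPM in EV shNC, 44.2 and 41.8 CPM in WT shNC and 75.2 and 74.8 CPM in dHLH shNC. The 3 pairs did not overlap. Ankrd1 rose by 3.15 ± 0.17 with WT (adjusted p = 8.48e-10) and by 3.96 ± 0.17 with dHLH (adjusted p = 1.93e-11), calls that stood whichever library was left out.

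The coactivator Wwtr1 and its partner Tead1 fell. Wwtr1 was 277 and 281 CPM in EV shNC, 193 and 229 CPM in WT shNC and 187 in both dHLH shNC libraries, all below EV. The log2 difference was -0.41 ± 0.11 for WT (adjusted p = 0.0121) and -0.57 ± 0.11 for dHLH (adjusted p = 0.000795). The WT call was lost without EV shNC replicate 1 (-0.41, 0.0615), EV shNC replicate 2 (-0.42, 0.053) or WT shNC replicate 1 (-0.29, 0.135). Tead1 was 244 and 249 CPM with EV, 174 and 161 CPM with WT and 167 and 163 CPM with dHLH. It fell by 0.56 with WT and by 0.57 with dHLH on the log2 scale (adjusted p = 0.000283 and 0.000161), in each fit with 1 library left out. The sum of the 4 TEAD genes was 273 and 271 CPM with EV shNC, 198 and 186 CPM with WT shNC and 189 and 182 CPM with dHLH shNC. Yap1 was 72.0 and 66.1 CPM with EV, 49.6 and 40.7 CPM with WT and 44.1 and 48.4 CPM with dHLH, without overlap with EV, at -0.62 (adjusted p = 0.0725) and -0.58 (adjusted p = 0.0827).

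Of the targets, Ajuba was 10.9 and 13.1 CPM in EV shNC, 22.8 and 33.4 CPM in WT shNC and 26.8 and 24.3 CPM in dHLH shNC. Both constructs lay above EV, by 1.22 ± 0.20 (adjusted p = 0.000268) and 1.09 ± 0.20 (adjusted p = 0.000507), with no call lost to a left-out library. Amotl2 was 34.2 and 30.0 CPM with dHLH and 20.2 and 14.8 CPM with EV, higher by 0.88 ± 0.25 (adjusted p = 0.0146), but not called without EV shNC replicate 2 (0.66, 0.182) or dHLH shNC replicate 1 (0.78, 0.12). With WT it differed by 0.10 (interval -0.44 to 0.65). Tead3 was called higher with both, by 1.83 ± 0.63 (adjusted p = 0.0464) and 1.78 ± 0.63 (adjusted p = 0.0448), on 13 and 4 counts in the EV libraries. Without EV shNC replicate 2 the 2 values were 1.15 (0.318) and 1.11 (0.323), and 9 and 7 of the 18 fits with 1 library left out lost the calls. Between dHLH shNC and WT shNC, Ankrd1 was the 1 member of 9 called, at 0.81 ± 0.14 (adjusted p = 0.00332), where 1.91% of all genes were called. It was 0.77 (0.0653) without WT shNC replicate 2 and 0.81 (0.508) in 1 fit of all 40 libraries.

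Markers moved with the constructs here too. The mesenchymal sum was 12.7 and 10.8 CPM in EV shNC, 75.4 and 69.8 CPM in WT shNC and 323 and 294 CPM in dHLH shNC. Col1a1 (means of 1.98, 49.1 and 189 CPM) and Col1a2 (2.36, 14.3 and 105 CPM) carried it, while Pdgfra ran the other way (5.39, 3.74 and 2.64 CPM) and Dcn was at 1 count or fewer in each library. The melanocytic sum was 343 and 349, 122 and 119, and 41.2 and 44.3 CPM in the same order, with Dct, Tyrp1 and Mlana at 0 in all 3 groups. The sum followed Sox10 (means of 330, 99.6 and 24.4 CPM), and Mitf did not follow it (15.4, 20 and 18.1 CPM). Myh9 was higher by 0.51 with WT and by 0.39 with dHLH. Their part in the results was not tested. YUMM2.1 WT without a hairpin and WT shNC differed in Ankrd1, at 0.255 and 3.97 CPM against 44.2 and 41.8 CPM, but these cultures also differed in hairpin vector and selection and were not compared by a test.

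Each hairpin was then set against shNC within a construct. Myh9 fell in all 6 comparisons. It was 697 and 665 CPM in EV shNC, 231 and 246 CPM with shMyh9#2 and 487 and 475 CPM with shMyh9#4. The log2 difference was -1.51, -2.04 and -1.69 with shMyh9#2 in EV, WT and dHLH cells, and -0.52, -0.93 and -0.42 with shMyh9#4, so shMyh9#4 was the weaker hairpin in each construct.

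In EV cells Ankrd1 rose with both hairpins. It was 27.0 and 24.6 CPM with shMyh9#2 and 16.4 and 13.1 CPM with shMyh9#4, against 4.89 and 4.71 CPM with shNC, with no overlap among the 3. The log2 differences were 2.42 ± 0.18 (adjusted p = 2.37e-07) and 1.60 ± 0.18 (adjusted p = 8e-05), both called in each fit with 1 library left out, and the second not called in 1 fit of all 40 libraries (1.60, 0.253). Ankrd1 was the 1 member of 9 called with each hairpin, against 6.65% of all genes for shMyh9#2 and 1.71% for shMyh9#4. Amotl2 and Ajuba did not pass: with shMyh9#2 they differed by -0.19 (interval -0.74 to 0.37) and 0.13 (-0.31 to 0.57), and with shMyh9#4 by 0.01 (-0.54 to 0.55) and 0.29 (-0.14 to 0.72). The median of the 9 members was -0.21 and 0.01, with 0.007 and 0.0 over all genes.

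In WT cells Ankrd1 was 56.6 and 55.7 CPM with shMyh9#2 and 43.2 and 54.1 CPM with shMyh9#4, against 44.2 and 41.8 CPM, at 0.38 ± 0.14 (adjusted p = 0.131) and 0.20 ± 0.14 (adjusted p = 0.62). Ajuba was called with shMyh9#2, at 15.3 and 15.5 CPM against 22.8 and 33.4 CPM, a fall of 0.88 on the log2 scale (adjusted p = 0.0124). The call was lost without WT shNC replicate 2, the high library (-0.57, 0.253), or without either shMyh9#2 library (-0.86, 0.108, and -0.87, 0.109). It was the 1 of 9 members called, against 4.76% of all genes. With shMyh9#4, 0 of 9 were called in edgeR, 1 (Tead4, -0.67) was under an unadjusted p of 0.05, 0 were called in DESeq2, and the background was 0.236%.

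In dHLH cells the 2 hairpins gave different counts. With shMyh9#2, 0 of 9 members were called in edgeR (1 at an unadjusted p under 0.05, 0 in DESeq2, background 0.559%): Ankrd1 was 52.6 and 59 CPM against 75.2 and 74.8 CPM, at -0.43 ± 0.14 (adjusted p = 0.224). With shMyh9#4, 3 of 9 were called, against 15.1% of all genes. Ankrd1 fell to 26.6 and 27.3 CPM, by a log2 difference of -1.47 ± 0.15 (adjusted p = 4e-05), called in each fit with 1 library left out. Ajuba was 12.2 and 15.3 CPM against 26.8 and 24.3 CPM, at -0.87 ± 0.21 (adjusted p = 0.0106), and was not called without dHLH shNC replicate 1 (-0.80, 0.0949), shMyh9#4 replicate 1 (-0.75, 0.0603) or shMyh9#4 replicate 2 (-1.07, 0.0644). Tead2 was 3.96 and 6.52 CPM against 1.87 and 2.27 CPM, at 1.38 ± 0.45 (adjusted p = 0.047), a call lost in 13 of 18 such fits (0.96, 0.401 without shMyh9#4 replicate 2). Yap1 was 30.6 and 23.6 CPM against 44.1 and 48.4 CPM, at -0.78 ± 0.26 (adjusted p = 0.0555). Myh9 fell less with shMyh9#4 than with shMyh9#2 in these cells, while more genes of the whole table were called with it (15.1% against 0.559%).

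Markers moved with the hairpins as well. With shMyh9#2 in EV cells the melanocytic sum was 219 and 202 CPM, against 343 and 349 CPM with shNC, and the mesenchymal sum 31.4 and 38.8 CPM against 12.7 and 10.8 CPM. With shMyh9#4 in EV cells they were 248 and 288 CPM and 18 and 20.5 CPM. With shMyh9#2 in WT cells the melanocytic sum was 56.5 and 59.2 CPM against 122 and 119 CPM, and the mesenchymal sum 169 and 165 CPM against 75.4 and 69.8 CPM. With shMyh9#4 in WT cells they were 94.2 and 91.0 CPM and 87.2 and 106 CPM. In dHLH cells with shMyh9#4, where Ankrd1 fell, the melanocytic sum was higher than with shNC (73.9 and 69.8 CPM against 41.2 and 44.3 CPM). The mesenchymal sum was lower (250 and 255 CPM against 323 and 294 CPM). In dHLH cells with shMyh9#2, Ankrd1 also lay below shNC, though it was not called. The sums there went the opposite way, at 37.8 and 31.8 CPM (melanocytic) and 334 and 453 CPM (mesenchymal). None of these pairs overlapped. Most of the lower mesenchymal sum in dHLH cells with shMyh9#4 lay in Col1a2, at 32.6 and 37.4 CPM against 109 and 101 CPM with shNC. Col1a1 and Pdgfra went the other way. Col1a1 was 208 CPM in both libraries against 198 and 181 CPM, and Pdgfra 3.96 and 5.99 CPM against 2.36 and 2.92 CPM. Sox10 made up most of each of these melanocytic sums except in dHLH cells with shMyh9#2. There Sox10 was 14.4 and 12.4 CPM and Mitf 23.4 and 19.3 CPM. Col1a1 averaged 21.1 CPM with shMyh9#2 and 1.98 CPM with shNC in EV cells. Their part in the results for the 9 genes was not tested.

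The effect of a hairpin on Ankrd1 differed between the constructs. Against its effect in EV cells, that of shMyh9#2 was lower by a log2 difference of -2.04 ± 0.23 in WT cells (adjusted p = 2.08e-05) and of -2.86 ± 0.23 in dHLH cells (adjusted p = 9.58e-07). That of shMyh9#4 was lower by -1.39 ± 0.23 in WT cells (adjusted p = 0.00589; -1.36 and 0.0556 without EV shNC replicate 2) and by -3.06 ± 0.24 in dHLH cells (adjusted p = 1.63e-06). In 1 fit of all 40 libraries neither difference in WT cells was called (-2.03, adjusted p = 0.114 for shMyh9#2, and -1.40, 0.521 for shMyh9#4). The 4 differences share the EV libraries. Ajuba differed in 2 of the 4, by -1.0 ± 0.28 for shMyh9#2 in WT cells (adjusted p = 0.0485; -0.68 and 0.266 without WT shNC replicate 2, and lost in 13 of 18 fits) and by -1.16 ± 0.29 for shMyh9#4 in dHLH cells (adjusted p = 0.0211, lost in 5 of 18). Members called were 2, 1, 1 and 2 of 9 for shMyh9#2 in WT, shMyh9#4 in WT, shMyh9#2 in dHLH and shMyh9#4 in dHLH cells, against 5.18%, 0.741%, 3.29% and 8.51% of all genes.

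**Figure D4:**
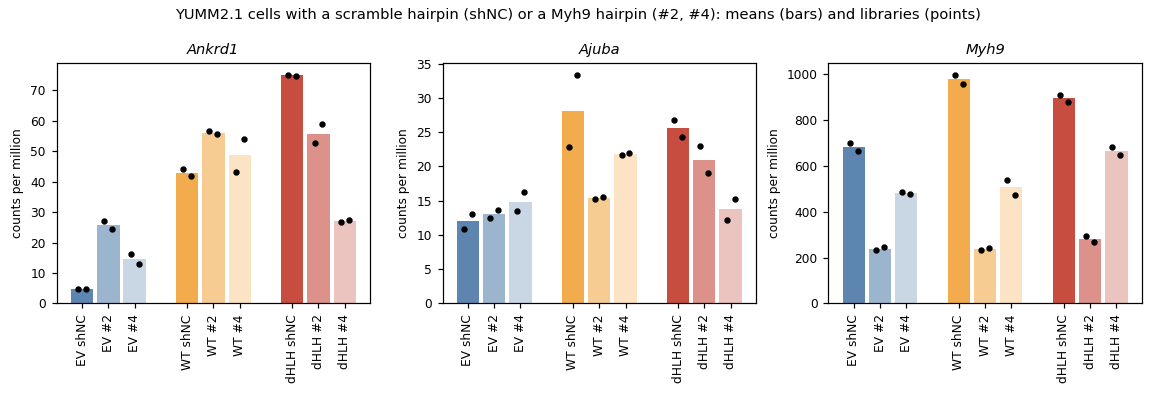
Level of Ankrd1, Ajuba and Myh9 in the 18 YUMM2.1 hairpin libraries, in CPM from 0, by construct and hairpin, with bars for the mean of 2 libraries and 1 point per library. Ankrd1 was higher with either Myh9 hairpin in EV cells, from 4.89 and 4.71 CPM to 13.1 to 27.0 CPM, and in dHLH cells it was lower with shMyh9#4, at 26.6 and 27.3 CPM.

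Genes that act on YAP, TAZ or TEAD were taken as a list of 25 Hippo pathway regulators. Among them were the kinases Stk3, Stk4, Lats1 and Lats2 with their partners and activators, and the angiomotins Amot and Amotl1. It also held the atypical cadherins Fat1, Fat4 and Dchs1, the Ajuba relatives Limd1 and Wtip, and the TEAD-binding Vgll3 and Vgll4. In YUMM2.1 with dHLH, 4 of 25 were higher and 3 lower than with EV, where 13.2% of all genes were called. The median was -0.07 beside -0.011 over all genes. Limd1, a LIM protein that holds LATS back, was 34.3 and 29.8 CPM against 151 and 103 CPM, at -1.97 ± 0.22 (adjusted p = 0.00334), whichever library was left out. Wtip, its relative, was 13.7 and 10.1 CPM against 3.84 and 4.54 CPM, at 1.53 ± 0.28 (adjusted p = 0.0169), a call lost without EV replicate 1 (1.41, 0.0907) or dHLH replicate 1 (1.29, 0.0825). The dHLH libraries thus lay below EV for Limd1 and above EV for Wtip, overlapping EV in neither. Without both doubtful libraries 7 were called (5 higher and 2 lower), where 11.9% of all genes were, and with the labels exchanged 11 (6 and 5), where 28.7% were.

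With the scramble hairpin, 4 regulators were higher and 6 lower in WT cells and in dHLH cells alike, where 22.3% and 26.4% of all genes were called. The medians were -0.09 and 0.01 beside 0.017 and 0.016 over all genes. Taok3, a kinase that can activate the cascade, was 24.1 and 33.1 CPM in EV, 81.2 and 77.6 CPM in WT and 97.7 and 86.0 CPM in dHLH. Both constructs lay above EV, by 1.46 ± 0.14 (adjusted p = 9.46e-07) and 1.69 ± 0.14 (adjusted p = 9.03e-08). Wtip was higher by 2.66 ± 0.48 and 2.75 ± 0.48 and stood at 0.979 and 1.57 CPM in EV, and both genes were called whichever library was left out.

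Among the Myh9 hairpins, in EV cells shMyh9#2 called 2 higher and 2 lower of 25, and shMyh9#4 called Taok3 alone. Over all genes, 6.65% were called with shMyh9#2 and 1.71% with shMyh9#4. Taok3 rose to 62.3 and 64.7 CPM with shMyh9#2, by 1.15 ± 0.14 (adjusted p = 6.18e-05), whichever library was left out, and to 50 and 48.7 CPM with shMyh9#4, by 0.77 ± 0.14 (adjusted p = 0.00623), or 0.58 (0.155) without EV shNC replicate 1. In WT cells shMyh9#2 called 1 higher and 2 lower (background 4.76%). There shMyh9#4 called 0 in edgeR (3 at an unadjusted p under 0.05, 0 in DESeq2, background 0.236%). In dHLH cells shMyh9#2 called 0 (3 and 1, background 0.559%) and shMyh9#4 called 2 higher and 2 lower (background 15.1%). In aC3, 1 of 22 regulators was called with WT, 2 with dHLH and 0 between them, against 11.2%, 10.9% and 0.877% of all genes. In YUMM1.7, 1 of 24 was called between dHLH and WT, against 2.57% of all genes. It was Fat1, at -0.58 ± 0.10 (adjusted p = 0.00488), or -0.52 (0.111) without dHLH replicate 2.

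A further list held 22 other genes in common use as YAP, TAZ and TEAD targets, among them Ccn1 and Ccn2, the matricellular proteins once named Cyr61 and Ctgf. Lats2 and Ptpn14 were in this list and in that of the regulators, so their calls count in both. In YUMM2.1 with dHLH, 5 of 18 tested were higher and 3 lower than with EV, where 13.2% of all genes were called. The median was -0.02 beside -0.011 over all genes, so the list did not move in a single direction. Ccn1 was 12.4 and 7.17 CPM against 1.34 and 0.649 CPM, higher by 3.28 ± 0.61 (adjusted p = 0.0165), or 2.83 (0.075) without dHLH replicate 1. Tgfb2, a secreted growth factor, was 19.0 and 17.9 CPM against 110 and 87.8 CPM, at -2.40 ± 0.16 (adjusted p = 0.00103), whichever library was left out. Without both doubtful libraries 8 of 20 were called, 4 in each direction, where 11.9% of all genes were, and with exchanged labels 11 of 18, 6 higher and 5 lower, where 28.7% were. Ccn2 was at no more than 2.90 CPM in any library.

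With the scramble hairpin, 7 of 20 targets were higher and 4 lower in WT cells (median 0.36 beside 0.017 over all genes). In dHLH cells 7 were higher and 3 lower (0.30 beside 0.016). Over all genes, 22.3% were called in WT cells and 26.4% in dHLH cells. Ccn1 was 1.47 and 1.90 CPM in EV, 5.86 and 4.66 CPM in WT and 11.2 and 8.76 CPM in dHLH, with no overlap. It was higher by 2.57 ± 0.43 with dHLH (adjusted p = 0.000239), whichever library was left out. With WT it was higher by 1.62 ± 0.45 (adjusted p = 0.0155), a call lost without EV shNC replicate 1 (1.45, 0.111), EV shNC replicate 2 (1.80, 0.0657) or WT shNC replicate 1 (1.44, 0.0792). Dock5, a guanine nucleotide exchange factor for Rac, was 13.2 and 9.52 CPM in EV, 32.2 and 31.3 CPM in WT and 31.5 and 29.9 CPM in dHLH, higher by 1.47 and 1.44.

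With shMyh9#2 in EV cells 3 targets were higher and 2 lower, where 6.65% of all genes were called. The median was 0.30 beside 0.007 over all genes. With shMyh9#4 in EV cells 0 of 20 were called in edgeR, 6 at an unadjusted p under 0.05 and 1 in DESeq2. The background was 1.71% of all genes in edgeR. In WT cells shMyh9#2 called 1 lower (background 4.76%) and shMyh9#4 0 (6 at an unadjusted p under 0.05, 0 in DESeq2, background 0.236%). In dHLH cells shMyh9#4 called 1 higher and 4 lower (background 15.1%) and shMyh9#2 0 (2 and 1, background 0.559%). In aC3, WT called 2 higher and 2 lower of 18, where 11.2% of all genes were called. Tgfb2 was 130 and 126 CPM against 42.6 and 44.1 CPM (1.55 ± 0.11, adjusted p = 2.97e-06). Axl, a receptor tyrosine kinase, was 370 and 363 CPM against 537 in both EV libraries (-0.56 ± 0.081, adjusted p = 0.00069). Both genes were called whichever library was left out. Between the lines, Axl was 4.70 and 4.65 CPM in B16 Ctrl and 384 to 711 CPM in YUMM2.1 and YUMM1.7 EV, a log2 difference of -6.69 ± 0.27 and -7.23 ± 0.28. Of 20 targets tested, 11 were lower and 2 higher in B16 than in YUMM1.7 (median -0.99 beside 0.013 over all genes). Against YUMM2.1, 8 were lower and 6 higher (median -0.38 beside -0.016). Over all genes, 49.6% were called against YUMM1.7 and 48.9% against YUMM2.1.

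For B16 labelled KO against Ctrl, 0 of 9 members were called in edgeR, 0 at an unadjusted p under 0.05 and 0 in DESeq2, where 0.44% of the 14556 genes tested were called. Yap1 was 112 and 81.8 CPM in the libraries labelled KO and 89.2 and 89.6 CPM in Ctrl, and Ajuba 23.9 and 45.4 CPM against 33.7 and 29.9 CPM, so the 2 KO libraries lay on either side of Ctrl. Ankrd1 was 2.59 and 0.286 CPM against 2.30 and 0.339 CPM. Leaving out a KO library sets 1 library against 2 Ctrl libraries, and the spread then comes from the Ctrl pair alone. Without KO replicate 1, 3 members were called, Tead1 (-0.38, adjusted p = 0.00864), Amotl2 (-0.72, 6.25e-05) and Ajuba (0.52, 0.000664), where 43.4% of all genes were. Without KO replicate 2, where 14.5% of all genes were called, Ajuba was called with the opposite sign (-0.42, 0.0389).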

How the data were processed

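A total of 40 RNA samples of mouse melanoma lines were measured by QuantSeq 3′ sequencing (100 ng of RNA, 75-base single reads, NextSeq 500). The authors aligned reads to mm10 with bowtie2 and counted them per Ensembl gene with RSEM. The version is 1.2.3 in the submitters' processing notes and 1.2.12 in the study's methods, and the strand setting and Ensembl release are not given in the sources used here. The deposited values were whole-number counts per gene, which were used as deposited. Symbols came from the mm10 annotation, for 99.63% of gene identifiers, and promoter sequences from RefSeq.

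Genes passing edgeR's filterByExpr were tested with edgeR 4.0.16 (TMM scaling, quasi-likelihood F-test, R 4.3.3) in 6 fits: B16, aC3, YUMM2.1, YUMM1.7, the 18 hairpin libraries, and the 22 libraries without a hairpin for comparisons of lines. That made 23 direct comparisons and 8 tests of a difference between effects. P-values were Benjamini-Hochberg adjusted over all genes of a fit, and "called" means an adjusted p under 0.05. SE is the fold change over the root of F, and intervals are 95%. With 2 libraries a group, an exact permutation test of a single value cannot go below 0.333, so none is given. Levels are CPM. Depth limits the low genes most: 3 counts were taken as the floor under which no fold is given.

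Samples were grouped by the submitters' labels. The text names the 9 members, Arntl and Myh9, and from each list at most the 3 called genes with the largest change whose groups did not overlap. Other list genes named were chosen after their values were seen. The members, lists and tests were chosen with earlier results of these data known. Alternatives were DESeq2 1.42.0 (Wald test, and its size factors), no filter, a mean of at least 10 counts, 1 fit of all 40 libraries, 8 libraries only, a replicate block, each library left out, and the YUMM2.1 labels exchanged or both libraries left out. The test was checked on simulated counts.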

Additional observations from a re-analysis of the deposited data

Results flagged for a closer look

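The effect of a Myh9 hairpin on Ankrd1 differed between YUMM2.1 cells with a construct and those with EV in all 4 tests: by -2.04 in WT and -2.86 in dHLH cells for shMyh9#2, and by -1.39 in WT and -3.06 in dHLH cells for shMyh9#4 (log2 difference of effects, edgeR). In 1 fit of all 40 libraries both differences in WT cells were not called (-2.03, adjusted p = 0.114, and -1.40, adjusted p = 0.521). The levels behind these were a rise from 4.89 and 4.71 CPM in EV cells, and starting levels of 41.8 to 75.2 CPM in WT and dHLH cells. Ajuba differed by -1.0 for shMyh9#2 in WT cells and by -1.16 for shMyh9#4 in dHLH cells.

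The effect of dHLH differed between lines. From YUMM2.1 to YUMM1.7 the difference was -5.04 for Ankrd1 and 0.50 for Wwtr1. From YUMM2.1 to aC3 it was 0.47 for Wwtr1 and -1.21 for Amotl2. The Wwtr1 and Amotl2 differences did not pass without the 2 YUMM2.1 libraries of doubtful label, and the Ankrd1 difference did. In each of these 10 results the test of the difference itself passed.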

How the results depend on the processing

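The number of members called changed by more than 1.5 times as follows, and other counts of members by no more than that. With 1 fit of all 40 libraries: aC3 dHLH 2 to 0, YUMM2.1 dHLH 2 to 4 against EV and 2 to 5 against WT, EV shMyh9#4 1 to 0, dHLH against WT with shNC 1 to 0, and the WT-EV difference of effects 2 to 0 for shMyh9#2 and 1 to 0 for shMyh9#4. Without the filter: YUMM2.1 dHLH 2 to 4 and 2 to 5, the YUMM1.7 difference of dHLH effects 2 to 1, aC3 against YUMM2.1 1 to 2, and dHLH against WT with shNC 1 to 2, as with those 8 libraries alone. With a minimum mean of 10 counts or DESeq2 size factors, the WT-EV difference for shMyh9#2 went from 2 to 1, and with the DESeq2 Wald test aC3 dHLH from 2 to 1. With exchanged labels: YUMM2.1 WT 0 to 1, dHLH 2 to 4 and 2 to 5, and the YUMM1.7 and aC3 differences of dHLH effects 2 to 4 each. Without both libraries: YUMM2.1 WT 0 to 1, dHLH against EV 2 to 1, and the aC3 difference 2 to 0. No sign turned among members called under any of these settings. The cause of the changes was not tested, beyond the fewer or other libraries a setting uses.

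With 1 library left out, members called ranged from 0 to 3 for B16 KO, 0 to 1 for aC3 WT, 0 to 2 for aC3 dHLH, 0 to 1 and 0 to 2 for YUMM2.1 dHLH against EV and WT, 0 to 1 for WT shMyh9#2, 1 to 4 for dHLH shMyh9#4, 3 to 6 for WT shNC, 4 to 7 for dHLH shNC, 0 to 1 for dHLH against WT with shNC, 1 to 2 and 0 to 1 for the WT-EV differences of shMyh9#2 and shMyh9#4, 1 to 2 for the dHLH-EV difference of shMyh9#4, 2 to 5 for YUMM1.7 against YUMM2.1, and 0 to 3 for the YUMM1.7 and aC3 differences of dHLH effects. Signs turned for B16 KO Tead1 (-0.38 without KO replicate 1 to 0.03 without KO replicate 2) and Ajuba (0.52 to -0.42, likewise), for Ankrd1 in YUMM2.1 WT (2.25 without EV replicate 2, -0.28 without EV replicate 1 and -2.36 without WT replicate 2), and for Tead4 with shMyh9#4 in dHLH cells (-0.91 without that group's replicate 1 to 0.05 without its replicate 2). Of 52 calls of members, 25 stood whichever library was left out and 23 under every setting. Of 99 calls of named regulators and targets, 49 stood whichever library was left out.

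With the replicate number as a block, 6 members were called for YUMM2.1 dHLH against EV and 6 against WT (2 each without it), where 27.1% and 26.0% of all genes were called (13.2% and 13.0% without it), and the WT-EV difference for shMyh9#2 went from 2 to 1. Nothing in the labels pairs the samples. Same-numbered libraries deviated from their group means together in YUMM2.1 (mean r = 0.318) but not in the hairpin libraries (-0.00377) or YUMM1.7 (-0.00246). For YUMM2.1 the r and the block used the labels as deposited, with the libraries of doubtful label among them. Neither was repeated with the labels exchanged. Depth limits Ankrd1 in the libraries at 3 counts or fewer, and Tead3 throughout (4 to 81 counts).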

Other observations

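As a description over the 20 group means of log2 CPM, with points that share libraries of 1 line and without a p, Wwtr1 and Tead1 ran together (Pearson r = 0.94, and 0.88 over the 18 groups without B16). Yap1 correlated with Tead1 at 0.16 over all groups and 0.89 without B16, and with Wwtr1 at -0.1 and 0.78. Tead1 and Ankrd1 stood at -0.08 and -0.7, and Ankrd1 and Ajuba at 0.26 and 0.66. In the B16 groups Wwtr1 and Tead1 were low and Yap1 was not.

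Among 13911 genes with a mean of at least 1 CPM, those with the profile closest to Ankrd1 over the 20 groups were Avpi1, Trim47 and Pla2g4a (r = 0.975, 0.969 and 0.967). For Wwtr1 they were Tbx3, Zfp503 and Ggta1 (0.986, 0.984 and 0.983), for Tead1 Spred1, Stxbp6 and Cebpa (0.984, 0.982 and 0.977) and for Yap1 Rbm12, Uimc1 and Cdc26 (0.955, 0.955 and 0.954). The closest gene was Mylip for Tead2 (0.927), Ccnc for Tead3 (0.864), Dyrk3 for Tead4 (0.922), Cited2 for Amotl2 (0.914) and Foxn3 for Ajuba (0.897).

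YUMM2.1 EV cells without a hairpin and with shNC were separate cultures and were not compared by a test. Tead4 was 11 and 11.2 CPM in the former and 24.3 and 18.5 CPM in the latter, and Tead2 6.76 and 6.49 CPM against 3.30 and 2.91 CPM, neither overlapping. Ankrd1 was 0.417 and 2.49 CPM against 4.89 and 4.71 CPM.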
